A study of Rattus norvegicus with 11 samples.

Results

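Nr4a2, Drd2 and Drd5 are 3 of the 32883 genes counted in the corpora quadrigemina of 11 male rats. They were chosen by name and found by their identifiers (ENSRNOG00000005600, ENSRNOG00000008428 and ENSRNOG00000005338), with no rule on their levels. Earlier results of these data were known when the 3 genes were chosen, so their tests are not independent of that choice. The corpora quadrigemina are the roof of the midbrain, and both the inferior and the superior colliculi were dissected into 1 sample. RNA was sequenced, one library per rat, from 3 KM, 4 “0” and 4 W rats that were 4 months old. KM (Krushinsky-Molodkina) is an inbred strain bred out of Wistar for audiogenic epilepsy, that is, seizures set off by sound. The “0” strain was bred for the lack of such seizures from F2 hybrids of KM with Wistar, so it carries part of the KM genome, and W rats are outbred Wistar taken as wild type, with animals that ran wild at the sound left out. All 3 strains carry the strain label Wistar, and every rat had been exposed to sound, the last time 4 days before the tissue was taken, so no library represents a rat that was never exposed. Before that, at 3 months of age, KM rats had been tested with sound once and had seizures, and “0” rats had been tested 3 times. Earlier exposure, seizures at any exposure and strain thus cannot be told apart. The comparisons ask how strains that differ in seizure proneness differ in the dopamine system.

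Dopamine acts on target cells through receptors of the D1-like and D2-like classes. Drd5 encodes a D1-like receptor that raises cyclic AMP through stimulatory G proteins, and Drd2 encodes the D2 receptor, which lowers cyclic AMP through inhibitory G proteins and also serves as an autoreceptor on dopamine neurons. Nr4a2 (also called Nurr1) is an orphan nuclear receptor needed for the formation and upkeep of midbrain dopamine neurons. Together with its relatives Nr4a1 and Nr4a3 it is also an early response gene, switched on within a short time of neuronal activity. In inferior colliculus, dopamine receptors are known to modulate responses to sound.

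The promoters are shown because Nr4a2 and Drd2 varied in opposite directions among these rats, and Nr4a1 is added as a relative of Nr4a2. Whether the motifs bear on that variation was not tested. Each run is the 250 bases before the RefSeq start of the gene (build GRCr8), 5′ to 3′ on the gene's own strand, at chr3:62104888-62105137 (minus strand) for Nr4a2, chr8:58605153-58605402 (plus strand) for Drd2, chr14:76703345-76703594 (minus strand) for Drd5 and chr7:134259888-134260137 (plus strand) for Nr4a1. Capitals mark the cyclic AMP response element core TGACG and the GC box GGGCGG, each on either strand.
Nr4a2: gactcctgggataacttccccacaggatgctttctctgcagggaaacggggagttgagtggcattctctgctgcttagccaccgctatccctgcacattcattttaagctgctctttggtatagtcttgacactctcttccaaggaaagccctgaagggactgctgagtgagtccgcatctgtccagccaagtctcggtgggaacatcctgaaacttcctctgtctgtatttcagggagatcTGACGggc
Drd2: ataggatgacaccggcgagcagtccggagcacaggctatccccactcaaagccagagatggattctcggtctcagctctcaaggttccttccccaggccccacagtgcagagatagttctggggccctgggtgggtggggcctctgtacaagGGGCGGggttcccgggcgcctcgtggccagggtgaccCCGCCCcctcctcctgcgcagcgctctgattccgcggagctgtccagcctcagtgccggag
Drd5: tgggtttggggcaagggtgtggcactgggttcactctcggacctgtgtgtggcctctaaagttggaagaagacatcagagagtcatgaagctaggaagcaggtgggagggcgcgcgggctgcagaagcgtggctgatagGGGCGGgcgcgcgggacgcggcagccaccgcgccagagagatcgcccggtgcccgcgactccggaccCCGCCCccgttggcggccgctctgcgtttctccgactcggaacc
Nr4a1: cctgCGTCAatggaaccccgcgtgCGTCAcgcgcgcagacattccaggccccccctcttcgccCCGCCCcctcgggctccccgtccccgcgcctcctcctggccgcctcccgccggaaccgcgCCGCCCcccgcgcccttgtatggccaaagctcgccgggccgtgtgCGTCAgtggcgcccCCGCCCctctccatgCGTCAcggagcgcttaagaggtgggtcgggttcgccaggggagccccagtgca
The Nr4a2 run held 1 TGACG, starting 8 bases before the start, and the Nr4a1 run held 4, with no such match in the Drd2 and Drd5 runs, whereas 18.2% of 33469 rat promoters of the same length held one. Drd2 and Drd5 each had 2 GC boxes and Nr4a1 had 3, against 30.5% of promoters with at least 1. The full element TGACGTCA (which holds TGACG; 1.59% of promoters), the AP-1 site TGACTCA (4.05%), the NR4A site AAAGGTCA (1.24%) and the TATA box TATAAA (12.9%) were searched on both strands and matched none of the 4 runs. GC content was 52% for Nr4a2, close to the median of 51.2% over all promoters, 66% for Drd2, 67.2% for Drd5 and 74.8% for Nr4a1.

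Between 10545964 and 15140180 reads per rat were assigned to genes (median 11861682). Levels are given as CPM, the count of a gene relative to all assigned reads of the rat, scaled by TMM factors, which set the bulk of genes level between libraries. CPM is not corrected for transcript length, so it is compared here between rats and not between genes. A level of 3 counts corresponded to 0.177 to 0.33 CPM. One library stood apart from the others in the tissue it held. The summed level of the 7 choroid plexus genes, the lining that makes cerebrospinal fluid, was 7030 CPM in KM 3, of which Ttr gave 6420 CPM, against 18.4 to 71.4 CPM in the other 10 rats. Pomc, a pituitary and hypothalamic hormone gene, was at 31.9 CPM in KM 3 and at most 5.4 CPM elsewhere. The 10 most abundant genes took 29.2% of reads in “0” 3 and only 7.94% and 7.95% in KM 3 and “0” 4, against 13.9 to 19% in the other rats. In bulk tissue, fewer cells of a type and less RNA per cell cannot be told apart.

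Nr4a2 was lower in “0” rats than in both other strains. The 3 KM rats held 17.6, 10 and 6.55 CPM (rats 1 to 3), the 4 “0” rats 4.18, 3.8, 2.53 and 1.76 CPM, and the 4 W rats 10.6, 7.81, 2.41 and 19.7 CPM. Every KM rat lay above every “0” rat, a lack of overlap that 4.59% of genes tested shared, while among W rats the third fell inside the “0” range and the fourth was the highest of all. Mean levels were 11.4 ± 5.64 CPM in KM (SD, n = 3), 3.07 ± 1.12 CPM in “0” (n = 4) and 10.2 ± 7.25 CPM in W (n = 4).

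**Figure D1:**
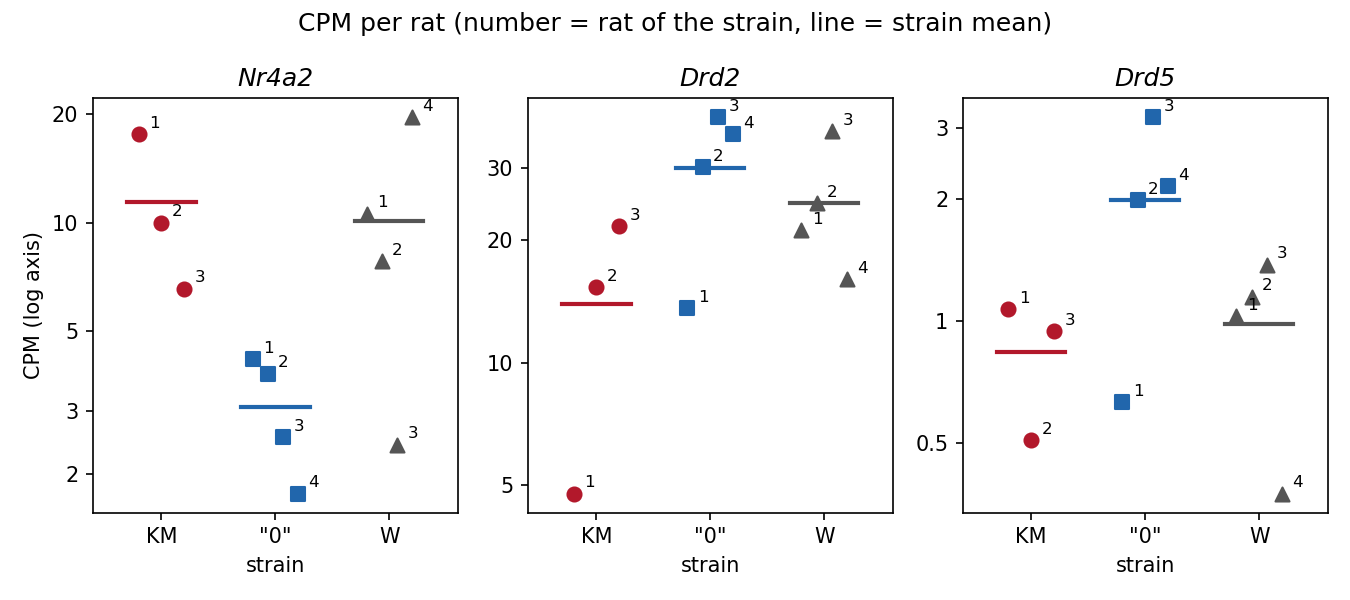
CPM of Nr4a2, Drd2 and Drd5 in each rat on log axes, by strain (KM n = 3, “0” n = 4, W n = 4), with the rat's number beside its point and a line at the strain mean. For Nr4a2 the “0” rats lie between 1.76 and 4.18 CPM, below all KM rats, while for Drd2 the lowest rat is KM 1 (4.77 CPM) and for Drd5 “0” 2, 3 and 4 lie above all others.

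Between KM and “0” rats Nr4a2 was 3.71-fold higher in KM, a log2-fold change of 1.89 ± 0.40 (SE; 95% interval 0.98 to 2.80). The edgeR quasi-likelihood (QLF) test gave p = 0.00108 and an exact two-sided permutation of the rats on mean log2 CPM gave p = 0.0571, the smallest that 3 against 4 rats allow. A QLF p under 0.05 is the threshold used here for a difference. Of 13686 genes tested 3.65% passed it, 2.37% as higher in KM, and Nr4a2 ranked 31. Adjusted over all genes its p was 0.478, and 2 genes (0.0146%) had an adjusted p under 0.05, so the difference did not pass adjustment for the number of genes in this test. Under the DESeq2 Wald test, an alternative, it did (1.88, adjusted p = 0.00519), while under the other 6 alternative settings adjusted p was 0.167 to 0.795. In “0” against W rats Nr4a2 fell by 1.73 ± 0.54 on the log2 scale (95% interval -2.94 to -0.52; 3.32-fold lower in “0”), with p = 0.00979 in the QLF test (adjusted p = 0.5) and p = 0.114 by exact permutation. There 6.69% of 13630 genes passed, 3.43% as lower in “0”, and 0.11% had an adjusted p under 0.05. KM and W rats did not differ in Nr4a2 beyond the spread between rats, at 0.17 ± 0.59 (QLF p = 0.785, adjusted p = 0.952, exact permutation p = 0.8), but the interval of -1.19 to 1.52 leaves room for a difference of either sign. The comparisons with “0” share the same 4 “0” rats. Without KM 3 the difference from “0” was 2.19, and both differences of the “0” strain passed p under 0.05 whichever rat was left out.

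**Figure D2:**
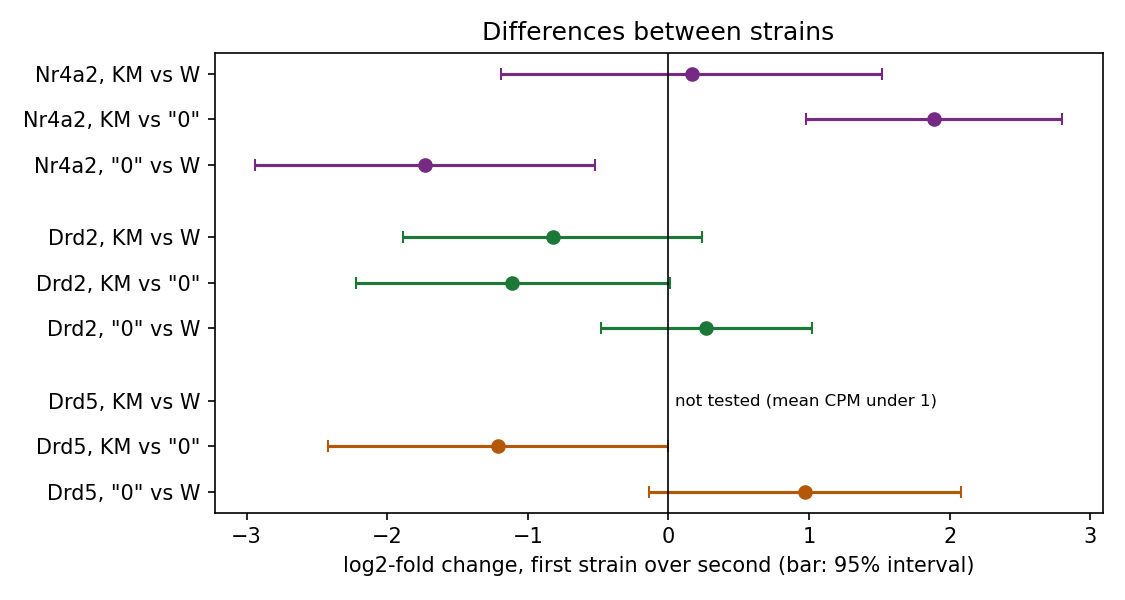
Log2-fold change between strains (first strain over second; x axis) for each gene, with bars for the 95% interval from the QLF test. The intervals for Nr4a2 in KM vs “0” (0.98 to 2.80) and “0” vs W (-2.94 to -0.52) lie clear of 0, that of Drd5 in KM vs “0” ends at 0, and those of Drd2 reach across it.

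Early response genes were lower in “0” than in W rats along with Nr4a2. Of 18 listed genes, 5 could be named in the files, and all 5 fell in “0” against W, where 3.43% of all genes passed as lower in “0”, with a median log2-fold change of -0.98 beside -0.01 over all genes. The 5 were the receptors Nr4a1 (-1.42 ± 0.29, adjusted p = 0.157) and Nr4a3 (-1.45 ± 0.38, adjusted p = 0.324), the transcription factors Fos (-0.98 ± 0.16, adjusted p = 0.0724) and Egr1 (-0.94 ± 0.21, adjusted p = 0.212), and the phosphatase gene Dusp1 (-0.78 ± 0.16, adjusted p = 0.157). The level of Fos was 9.16 to 12.2 CPM in the “0” rats and 18.7 to 25.7 CPM in the W rats, so the strains did not overlap. Egr1, at 35.4 to 53.7 CPM in “0” and 54.3 to 104 CPM in W, did not overlap either, which held for 4.37% of all genes. In KM against “0” rats, where 2.37% of genes passed as higher in KM, 3 of the 5 rose, Nr4a1 by 1.70 ± 0.45 (adjusted p = 0.907), Nr4a3 by 0.95 ± 0.36 (adjusted p = 0.987) and Fos by 0.76 ± 0.30 (adjusted p = 0.987), with a median over the 5 of 0.76 beside 0.01 over all genes. In KM against W rats, where 5.33% of genes passed as lower in KM, 1 of the 5 passed, Egr1, which fell by 1.09 ± 0.33 (adjusted p = 0.352). Without KM 2 the count that passed was 2 of the 5. These symbols are known only because the study listed the genes as differing in KM rats, so the counts are not independent evidence of a direction. No listed gene named in the comparisons had an adjusted p under 0.05, which 0.0656% of genes reached in KM against W.

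**Figure D3:**
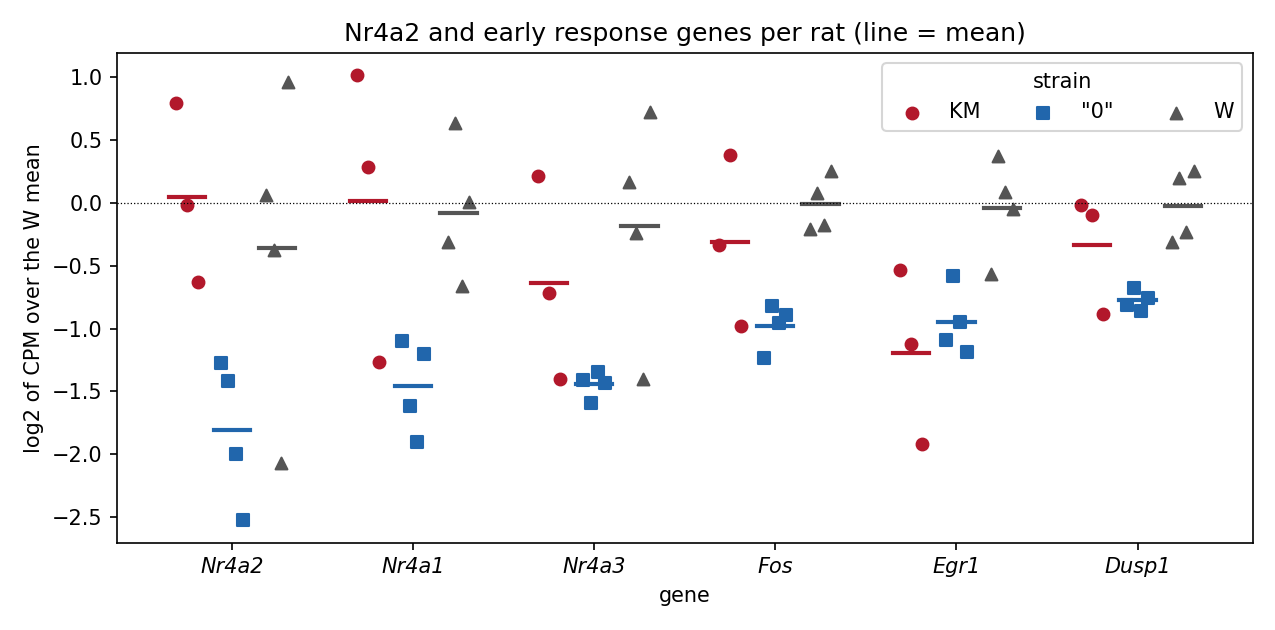
Log2 ratio of each rat's CPM to the mean CPM of the W rats (y axis; the dotted line is 0) for Nr4a2 and the 5 early response genes that could be named, with a line at the mean of each strain. The “0” rats cluster low and close together for Nr4a3, Fos and Dusp1. KM rats spread more widely for all 3, and W rats do so for Nr4a3 but little more than “0” rats for Fos (18.7 to 25.7 CPM).

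The level of Nr4a1 was 54, 32.6 and 11.1 CPM in KM 1 to 3, 7.16 to 12.5 CPM in “0” and 16.9 to 41.6 CPM in W rats. Nr4a3 stood at 12.6, 6.62 and 4.13 CPM in KM, 3.61 to 4.29 CPM in “0” and 4.13 to 18 CPM in W. KM 3, the rat with choroid plexus genes, was the lowest KM rat for both, as it was for Nr4a2. W 3, the lowest W rat for Nr4a2, was also the lowest W rat for Nr4a1 and Nr4a3. Rxrg, a retinoid X receptor and partner of NR4A receptors, did not pass in any comparison (KM vs W -0.83 ± 0.36, adjusted p = 0.461). Its level was 2.72 to 6.49 CPM in KM, 3.63 to 8.92 CPM in “0” and 4.98 to 9.46 CPM in W.

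Drd2 was at its lowest in KM rats, but no comparison of strains passed at the main settings. KM 1 to 3 held 4.77, 15.3 and 21.6 CPM, the “0” rats 13.6, 30.1, 40 and 36.3 CPM, and the W rats 21.1, 24.6, 36.9 and 16 CPM. KM 1 was the lowest of all 11 rats, and the ranges of all 3 strains overlapped. Mean levels were 13.9 ± 8.51 CPM in KM, 30 ± 11.7 CPM in “0” and 24.6 ± 8.88 CPM in W. The log2-fold change was -1.11 ± 0.50 for KM against “0” (95% interval -2.22 to 0.01; QLF p = 0.0521, adjusted p = 0.987, exact permutation p = 0.171). It was -0.82 ± 0.47 for KM against W (-1.89 to 0.24; QLF p = 0.112, adjusted p = 0.57, exact permutation p = 0.171), where 10.9% of 13721 genes passed. For “0” against W it was 0.27 ± 0.33 (-0.48 to 1.02; QLF p = 0.437, adjusted p = 0.976, exact permutation p = 0.571). Without KM 3 the difference passed in both comparisons of KM (-1.56 against “0”, adjusted p = 0.714, and -1.29 against W, adjusted p = 0.402), and without “0” 1 it passed against “0” (-1.35, adjusted p = 0.904), so the call for Drd2 turned on single rats. It also turned on the method, since Drd2 passed against “0” under the DESeq2 Wald test (-1.12, adjusted p = 1), with no filter on low counts (-1.10, adjusted p = 0.886) and in 1 fit of all 11 rats (-1.10, adjusted p = 0.934). With a block on the rats' numbers Drd2 passed against “0” (-1.11, adjusted p = 0.243) and against W (-1.16, adjusted p = 0.282). Those numbers were taken not to pair the rats.

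Drd5 was the scarcest of the 3 genes in reads, with 4 to 33 counts per rat. KM rats held 1.07, 0.51 and 0.945 CPM (13, 6 and 16 counts), “0” rats 0.631, 1.99, 3.19 and 2.15 CPM (8, 21, 29 and 33 counts) and W rats 1.03, 1.15, 1.38 and 0.376 CPM (13, 15, 16 and 4 counts). For W 4 the exact 95% Poisson interval runs from 1.09 to 10.2 counts, which covers counting error only. “0” 2, 3 and 4 lay above every KM and W rat, while “0” 1 was among the lowest. Means were 0.841 ± 0.293 CPM in KM, 1.99 ± 1.05 CPM in “0” and 0.984 ± 0.43 CPM in W. In KM against “0” rats Drd5 fell by 1.21 ± 0.54 on the log2 scale (95% interval -2.42 to 0; QLF p = 0.0499, adjusted p = 0.987, exact permutation p = 0.171), where 1.29% of genes passed as lower in KM. This call lies at the threshold. It was lost when any 1 of 6 of the 7 rats was left out and kept only without “0” 1. The QLF p ran from 0.00588 to 0.149 and the change from -1.51 to -0.92. “0” rats were higher than W by 0.97 ± 0.50 (-0.14 to 2.08; QLF p = 0.0794, adjusted p = 0.826, exact permutation p = 0.229), which did not pass, although it did without “0” 1 (1.28, adjusted p = 0.556). In KM and W together the mean was under 1 CPM, the minimum for the test, and without that filter the change was -0.23 ± 0.49 (QLF p = 0.648, adjusted p = 0.897, exact permutation p = 0.743). Over the 9 permutation tests of the 3 genes the lowest adjusted p was 0.308.

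Rats of one strain differed from each other in these genes by more than most genes did. The highest W rat held 8.18 times the Nr4a2 CPM of the lowest, and the ratio was 2.68 in KM and 2.38 in “0”. For Drd2 the ratio was 4.53 in KM, 2.94 in “0” and 2.31 in W. The within-strain SD of log2 CPM was 0.90 for Nr4a2, larger than in 95.4% of 1638 genes of like level (median 0.35). For Drd2 it was 0.77, larger than in 97.3% of 2439 genes (median 0.25), and for Drd5 it was 0.72, larger than in 74.1% of 819 genes (median 0.56).

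Drd2 and Nr4a2 moved in opposite directions among rats of the same strain. In KM, Nr4a2 was highest in rat 1 and lowest in rat 3 and Drd2 was lowest in rat 1 and highest in rat 3. In W, the order of the 4 rats by Nr4a2 (4, 1, 2, 3) was the reverse of that by Drd2. In “0”, rat 1 had the most Nr4a2 and the least Drd2, and rats 3 and 4 had the least Nr4a2 and the most Drd2, though rat 3 exceeded rat 4 in both. After the strain means were taken out, Pearson's r between the log2 CPM of both genes was -0.76 over 11 rats (exact permutation within strains, p = 0.00116, adjusted p = 0.00696 over 6 relations) and Spearman's rho was -0.89 (p = 0.00289). Without the 2 rats farthest out in Drd2 (KM 1 and “0” 1) r was -0.85. It was -0.73 without KM 3 and lay between -0.82 and -0.73 whichever rat was left out, with exact p from 0.00231 to 0.00463. The share of other genes that ran against Drd2 or Nr4a2 as strongly was not computed. The relation is therefore not shown to be particular to this pair.

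**Figure D4:**
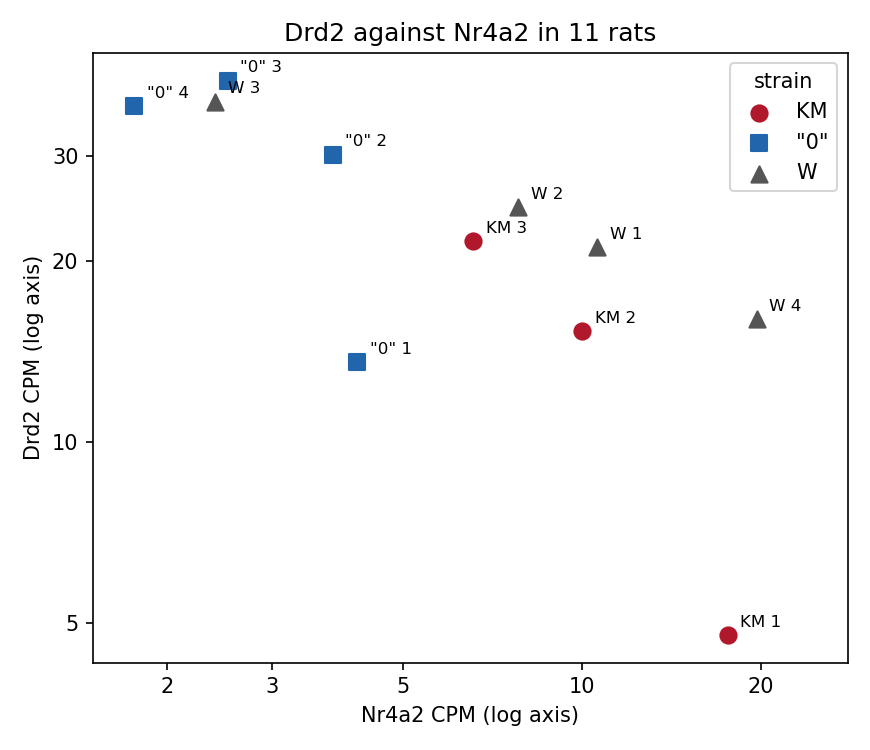
CPM of Drd2 (y axis, log) against CPM of Nr4a2 (x axis, log) in each rat, with the strain by colour and shape. Within KM and within W every rat with more Nr4a2 has less Drd2, and within “0” this holds apart from rats 3 and 4, whose order is the same for both genes. “0” 4 has the least Nr4a2 (1.76 CPM, with 36.3 CPM of Drd2) and KM 1 the least Drd2 (4.77 CPM, with 17.6 CPM of Nr4a2).

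The other relations were weaker or rested on single rats. Drd5 against Nr4a2 gave r = -0.55 (exact permutation p = 0.0706, adjusted p = 0.106; rho = -0.54, p = 0.133) and -0.23 without “0” 1 and W 4. Drd5 against Drd2 gave r = 0.51 (exact permutation p = 0.139, adjusted p = 0.167; rho = 0.41, p = 0.237) and 0.01 without the same 2 rats, but 0.95 without KM 1 (p = 0.00174). The mean log2 CPM of the 5 early response genes ran with Nr4a2 (r = 0.65, exact permutation p = 0.0388, adjusted p = 0.0822; rho = 0.63, p = 0.0799; 0.64 without KM 3 and KM 1) and ran against Drd2 (r = -0.67, p = 0.0411, adjusted p = 0.0822; rho = -0.66, p = 0.048), neither of which passed once adjusted. For Drd2 r was -0.32 without KM 3 and KM 1 and thus rests on those rats. Against Drd5 the early genes gave r = -0.24 (exact permutation p = 0.479, adjusted p = 0.479; rho = -0.15, p = 0.675) and -0.47 without KM 3 and KM 1.

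Across the 11 rats the gene most like Drd2 among 1758 with a symbol was Rasgrp2, a guanine nucleotide exchange factor for Rap proteins, with r = 0.97 in log2 CPM and 0.97 after the strain means were removed. Rasgrp2 stood at 16.4, 33.3 and 39.8 CPM in KM, 27.8, 48.6, 73.2 and 65.8 CPM in “0” and 50.3, 53.4, 66.7 and 33 CPM in W rats, with KM 1 lowest and “0” 3 highest, as for Drd2. Next came Vstm2l (0.97), the ephrin receptor gene Ephb1 (0.96), the potassium channel gene Kcnj16 (0.94) and Cbarp (0.94), a regulator of calcium channels, each lowest in KM 1. In all, 66 of 13693 other genes had r above 0.9 with Drd2, against 2 with Nr4a2 and 6 with Drd5. An r below -0.9 was found for 7 genes with Drd2, 3 with Nr4a2 and 6 with Drd5.

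**Figure D5:**
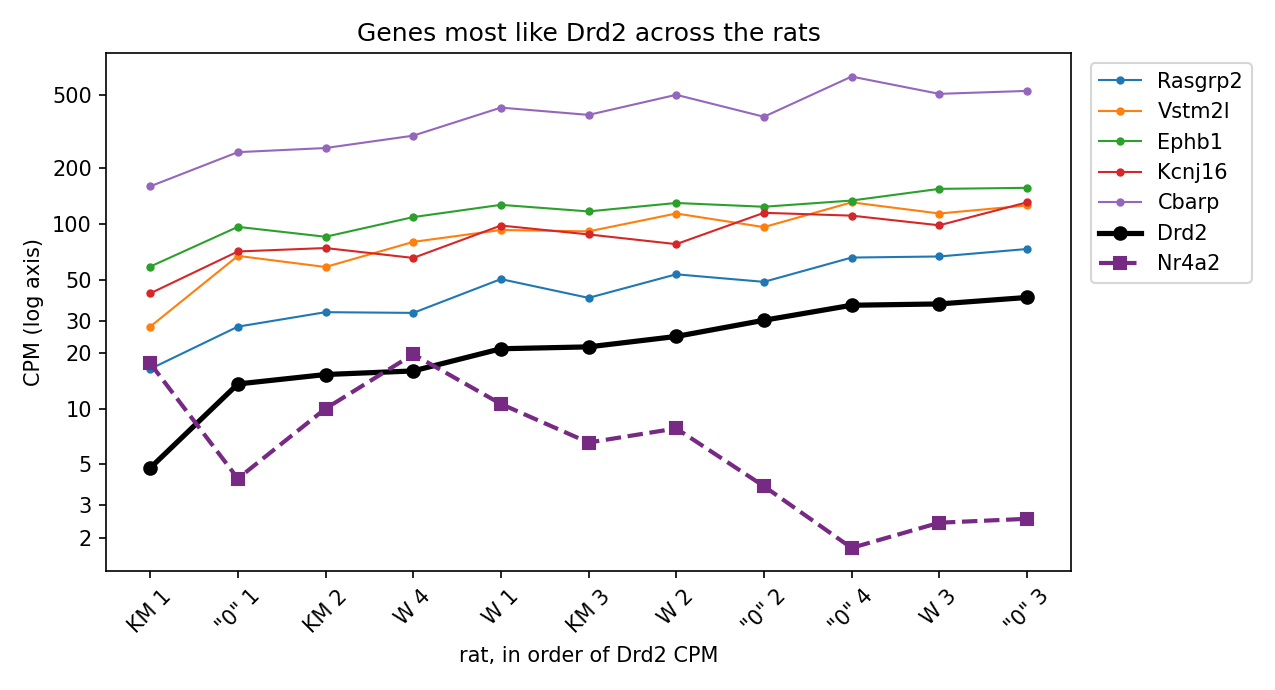
CPM (y axis, log) of Drd2, the 5 named genes most like it and Nr4a2 in each rat, with rats ordered by Drd2 CPM (x axis). All 5 are lowest in KM 1 and climb with Drd2, while Nr4a2 takes an uneven course, from 17.6 CPM in KM 1 over 4.18 CPM in “0” 1 and 19.7 CPM in W 4 to 2.53 CPM in “0” 3.

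For Nr4a2 the genes most alike were the integrin gene Itga11 (r = 0.91), Ric1 (0.91), the transcription factor Klf13 (0.88), Fbxo45 (0.88), which encodes an F-box protein, and Nr4a3 (0.88, and 0.89 with strain means removed). Itga11 was at 9.86, 7.39 and 2.36 CPM in KM, at most 0.947 CPM in “0” and at 4.45, 2.83, 1.21 and 7.14 CPM in W rats, so it repeated the order of Nr4a2 within KM and within W. For Drd5 they were Pnpla1 (0.94), the citrate transporter gene Slc13a5 (0.92), Dzip1 (0.91), Zkscan2 (0.86) and the keratin gene Krt2 (0.84), all highest in “0” 3 and lowest in W 4. These correlations describe the 11 rats and share each library's depth and tissue. Nearly all genes with a symbol were ones the study listed as differing in KM rats.

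Few other genes of the dopamine system could be named. Among 5 dopamine receptor genes only Drd2 and Drd5 had a symbol. Symbols came from the study's own list, nearly all of it genes listed as differing in KM rats. Of 14 genes for synthesis, storage, uptake and breakdown 2 did. Maob, a monoamine oxidase that breaks down dopamine, was at 67.5, 72.7 and 73.9 CPM in KM and 84.7 to 92.6 CPM in “0” rats. It fell by 0.30 ± 0.12 in KM on the log2 scale (adjusted p = 0.987), where 1.29% of genes passed as lower in KM. In W it was at 75.2 to 86.8 CPM and did not pass against KM (-0.19 ± 0.10, adjusted p = 0.556). KM rats overlapped neither “0” nor W rats in Maob, a lack of overlap that 4.59% and 11.7% of genes tested shared. Slc18a1, a vesicular monoamine transporter, was at 2.22, 2.29 and 0.118 CPM in KM, at most 0.475 CPM in “0” and at most 1.3 CPM in W, and did not pass in KM against W (0.89 ± 0.79, adjusted p = 0.72), the only comparison in which it was tested.

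Of 34 genes of dopamine receptor signalling 3 could be named, and all 3 fell in KM against W rats, with a median of -0.39 beside 0.01 over all genes and 5.33% of genes lower in KM. They were the adenylyl cyclases Adcy2 (-0.39 ± 0.14, adjusted p = 0.412) and Adcy8 (-0.41 ± 0.15, adjusted p = 0.412), and Arrb2 (-0.30 ± 0.11, adjusted p = 0.398), the β-arrestin that D2 receptors recruit. Arrb2 was at 38 to 39.5 CPM in the KM rats and 44 to 52.4 CPM in the W rats, and also fell in KM against “0” (-0.45 ± 0.18, adjusted p = 0.987). None of the 3 passed in “0” against W. These too were named by their listing as differing in KM.

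Lmx1a, the 1 gene that could be named of 8 transcription factors of dopaminergic neurons, was at 4.85, 3.4 and 8.38 CPM in KM rats and at most 1.97 CPM in the other 8. It rose in KM by 2.69 ± 0.36 against W (adjusted p = 0.0515) and by 2.09 ± 0.42 against “0” (adjusted p = 0.351). KM 3, with the choroid plexus genes, held the most, and Lmx1a is also known from choroid plexus and its precursors. KM 1 and KM 2 also lay above every “0” and W rat for Lmx1a. Of the 7 choroid plexus genes, Kcne2 (3.37 and 3.14 CPM against at most 1.99) and Kl (2.79 and 3.14 CPM against at most 2.33) did the same in those rats, and the other 5, Ttr, Folr1, Aqp1, Clic6 and Slc4a5, did not. Over all genes tested, the strains did not overlap in 11.7% in KM against W and in 4.59% in KM against “0”. The part of choroid plexus in Lmx1a was not tested.

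Several markers of other cells moved with the strains, and their part in the values of Nr4a2, Drd2 and Drd5 was not tested. Of the 7 choroid plexus genes 7 rose in KM against “0”, where 2.37% of all genes passed as higher in KM, and 5 against W, where 5.58% did. Without KM 3 both counts were 3, and the DESeq2 Wald test gave no p for 6 and 5 of the 7, since its filter on outlying counts set them aside. In “0” against W, where 3.43% of genes passed as lower in “0”, 2 of the 7 fell, Ttr and Aqp1, but none did in 1 fit of all 11 rats. Of 5 erythrocyte genes 3 could be named, and all 3 fell in “0” against W, beside the same 3.43%. Their summed level was 809 to 1320 CPM in “0” and 1750 to 4810 CPM in W rats, most of it from the α-globin gene Hba-a2, which has near-identical copies. In KM the sum was 1090 to 2020 CPM, and 2 of the 3 rose against “0” (2.37% of all genes), none without KM 1 or without KM 2. Slc4a1 fell in KM against W (-2.04 ± 0.53, adjusted p = 0.32), where 5.33% of genes passed as lower in KM. With the first Hba-a2 identifier it was the 1 of the 3 that did, while all 3 fell under the DESeq2 Wald test. The second Hba-a2 identifier, which was not counted here, also fell in KM against W (-1.07 ± 0.37, adjusted p = 0.394). W 4, with the most Nr4a2, also had the most of these genes. Pou4f1 was the only gene of the 5 on the habenula list with a symbol. Its level was 0.0822, 0.17 and 1.18 CPM in KM, 0.237, 1.71, 1.87 and 2.08 CPM in “0”, and 1.19, 2.76, 2.33 and 0.846 CPM in W. The level was lowest in KM 1, KM 2, “0” 1 and W 4, the 4 rats with the least Drd2. Whether Pou4f1 reads came from habenula or from the colliculi themselves was not tested. Pou4f1 fell in KM against W by 1.78 ± 0.76 (adjusted p = 0.453). Pomc, the only pituitary gene of 6 with a symbol, passed in no comparison.

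Among glial genes, Tmem119 of microglia rose in KM against W (0.49 ± 0.14, adjusted p = 0.334), where 5.58% of genes passed as higher in KM. Gfap of astrocytes rose in KM against W (0.62 ± 0.19, adjusted p = 0.36) and in “0” against W (0.68 ± 0.19, adjusted p = 0.404), where 3.26% of genes passed as higher in “0”. Aldh1l1 fell in KM against W (-0.46 ± 0.12, adjusted p = 0.32) and against “0” (-0.48 ± 0.18, adjusted p = 0.987). In these comparisons 5.33% and 1.29% of genes passed as lower in KM. No listed marker of dopaminergic, striatal, cortical and hippocampal, serotonergic or noradrenergic neurons, of pineal gland, of cerebellum or of the tectum itself was paired with a symbol here, so the labelled tissue was not checked against its own markers, and how far the cells that carry Drd2 or Nr4a2 differed in number between dissections was not tested.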

How the data were processed

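Poly(A) RNA libraries of 11 rats were sequenced by the authors, who trimmed the reads with Trimmomatic, aligned them with STAR to Rnor_6.0 and counted them per gene with HTSeq. Versions, annotation and strand setting are not given in the sources used here, so reads of antisense genes may not be told apart. The deposited values are raw counts, and reads outside genes (16.5 to 22.7%) were left out. Symbols came from the study's own gene list (1763 identifiers), which was used for names only. Where 2 identifiers shared a symbol, the first was taken.

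Genes with a mean of at least 1 CPM in the rats compared were tested pairwise with the edgeR 4.0.16 quasi-likelihood F test (TMM, R 4.3.3), calling p under 0.05 and giving Benjamini-Hochberg adjusted p beside it. Log2 CPM used a prior count of 2. Two-sided exact permutations and within-strain exact permutations of correlations were run in Python 3.11.15. On simulated data, 97.5 to 98.5% of 200 genes changed 4-fold were recovered per comparison, and 4.64 to 4.93% of unchanged genes were called. The changed genes were drawn at random and no library like KM 3 was simulated. These rates thus do not carry over to Nr4a2, Drd2 or Drd5. DESeq2 1.42.0, other normalization, filters, a replicate block and left-out rats were the alternatives.

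The 3 genes and the gene lists were chosen with earlier results of these data known. Named were all listed receptors, NR4A genes and dopamine synthesis genes with a symbol, the most abundant and up to 4 lowest-p genes of each other list, and the 5 genes most correlated with each of the 3. Lists are described by counts and medians. The result of 1 marker list is not reported here. Nothing states that rats came from separate litters, so p-values measure the spread between these rats. Replicate libraries differed by far more than sampling noise (chi-square over its degrees of freedom 19.8 to 225), so none was counted as a copy.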

Additional observations from a re-analysis of the deposited data

Results flagged for a closer look

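Within strains of 4 rats, 2 of 62 gene and strain groups over 31 named genes had 1 rat far from the others, with 3.1 to be met by chance at 1 in 20. Adcy2 was at 204 CPM in “0” 3 and at 125 CPM in the next “0” rat. Ttr was at 44.5 CPM in W 3 and at 5.67 CPM in the next W rat. Neither case concerned Nr4a2, Drd2 or Drd5.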

How the results depend on the processing

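Nr4a2 kept its direction and its side of p under 0.05 in KM vs “0” (log2-fold change 1.63 to 1.89) and in “0” vs W (-1.73 to -1.48) under all 7 other settings, and without any 1 rat (1.43 to 2.19 and -2.06 to -1.19). Its adjusted p in KM vs “0” was 0.00519 under the DESeq2 Wald test and 0.167 to 0.795 under the other 6 settings, and 0.0814 under the Wald test in “0” vs W. The cause was not tested. Nr4a2 in KM vs W changed sign without KM 1 (-0.29) and without W 3 (-0.17), with -0.29 to 0.69 over left-out rats, none of which passed. Drd2 in KM vs “0” passed under the DESeq2 Wald test (-1.12, adjusted p = 1), without a filter on low counts (-1.10) and in 1 fit of all 11 rats (-1.10), with adjusted p of at least 0.243 under every setting. Drd5 in KM vs “0” was lost under the newer quasi-likelihood form (-1.20), with the cause again not tested. Left-out rats gave Drd2 -1.29 to -0.42 in KM vs W, -1.56 to -0.70 in KM vs “0” and 0.11 to 0.53 in “0” vs W, and Drd5 -1.51 to -0.92 in KM vs “0” and 0.68 to 1.28 in “0” vs W. Over left-out rats, called genes numbered 954 to 1831 in KM vs W (954 without W 1, 1497 with all rats), 280 to 921 in KM vs “0” (295 without KM 1, 921 without KM 3, 280 without “0” 3, 500 with all rats) and 612 to 1017 in “0” vs W (912 with all rats). With no filter there were 777 in KM vs “0” and 1189 in “0” vs W.

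Same-numbered rats correlated at -0.188 to 0.191 in KM vs W, 0.058 to 0.235 in KM vs “0” and -0.581 to 0.517 in “0” vs W, and 1 of 3, 1 of 3 and 1 of 4 rats correlated best with its own number, so the numbers were taken not to pair the rats. With the replicate block, 781 genes were called in KM vs “0”, Nr4a2 in KM vs W was 0.80 (adjusted p = 0.34) and Drd2 was -1.16 (adjusted p = 0.282) in KM vs W and -1.11 (adjusted p = 0.243) in KM vs “0”, all 3 then past p under 0.05, while Drd5 in KM vs “0” was -1.06 (adjusted p = 0.903) and did not pass.

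Among the relations between genes, Drd2 with Nr4a2 passed under both other scalings (-0.77 to -0.76) and without any 1 rat. Without TMM factors the early genes gave 0.60 with Nr4a2 (exact permutation p = 0.0625) and -0.60 with Drd2 (p = 0.107). Leaving out each rat, a setting chosen after seeing the data, gave -0.68 to -0.33 for Drd5 with Nr4a2, 0.20 to 0.95 for Drd5 with Drd2, 0.57 to 0.72 for the early genes with Nr4a2, -0.80 to -0.45 with Drd2 and -0.46 to -0.10 with Drd5. At 4 to 33 counts a rat, depth limits Drd5 most. The count of erythrocyte genes called in KM vs W, with the first Hba-a2 identifier only, was 1. It was 3 under the DESeq2 Wald test, with no filter, in 1 fit of all 11 rats and without W 3. With the replicate block, and also without W 2, it was 2. In KM vs “0” it was 2, against 1 in 1 fit of all 11 rats and without “0” 2 or “0” 3, and 0 without KM 1 or KM 2. For choroid plexus genes the Wald test could not give a full count, and with the replicate block 4 of 7 were called in KM vs “0”.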
